A study of Homo sapiens with 13 samples.

Results

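A set of 10 genes of the circadian clock was followed through a pulse and chase of labelled RNA in K562 cells: PER1, PER2, PER3, CRY1, CRY2, NR1D1, NR1D2, BHLHE40, CLOCK and DBP. They were taken by symbol, each as the Ensembl gene ID that carries it, and are 10 of the 59204 gene IDs in the deposited tables. K562 is a long-established cell line derived from human chronic myeloid leukaemia, so the values describe a single line in bulk culture. Cells received 30 µM 4-thiouridine (4sU), a thiol analogue of uridine taken up into RNA as it is made, for 12 h with fresh medium every 3 h. They were then washed and kept in 3 mM uridine for 0, 1, 2, 4, 8 or 12 h, with 2 libraries at each of the 6 times. A single library came from cells given no 4sU; the labels do not say whether those cells went through the same medium exchanges and wash. After alkylation, which makes 4sU read as C, RNA was combined with 5% RNA of Drosophila S2 cells and sequenced from the 3′ ends of mRNAs, giving for each gene a count of all reads (total) and a count of the reads its authors call nascent (labelled). Nothing in the labels states that the 2 replicates of a time came from separate cultures; the p-values therefore reflect only the spread among these libraries, which could be technical.

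In the mammalian clock, the transcription factors CLOCK and BMAL1 bind E-boxes as a pair and activate the PER and CRY genes, whose proteins come together and repress that pair. NR1D1 and NR1D2 (REV-ERB alpha and beta) are nuclear receptors that repress BMAL1, BHLHE40 (DEC1) is a repressor that binds E-boxes itself, and DBP is an output factor that activates genes through D-boxes. Transcription of the PER genes is also known to respond quickly to hormones and to cyclic AMP, and the rhythm needs mRNAs of the repressors to be lost fast enough for the cycle to restart.

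Promoter windows of 300 bases (250 before to 50 after a RefSeq transcript start, GRCh38.p14) were found for all 10 genes, 14 windows in all, and were searched on both strands. The E-box CACGTG was present in windows of 3 of the 10 genes (PER1, NR1D2 and BHLHE40), against 8.77% of the 27305 genes with a window. The related E′-box CACGTT was present in 5 (PER2, CRY1, CRY2, NR1D1 and CLOCK), against 6.44% of genes, so that 8 of 10 held one or the other, against 14.5%. PER3 and DBP held neither in these windows. The D-box forms TTATGTAA (NR1D2 and PER3; 1.13% of genes) and TTACGTAA (PER2; 0.146%) were also seen, and the cyclic AMP response element TGACGTCA was in none of the 14 windows (2.25% of genes). The shorter motifs TGACG (5 of 10 genes; 28.4% of genes) and AGGTCA, which REV-ERBs and RORs bind (2 of 10; 16.5%), were counted but are not marked. None of the marked matches overlapped a match of another marked motif. Windows follow for the 6 genes whose total RNA rose at one or more chase times and for BHLHE40, whose total RNA fell, each read 5′ to 3′ on the gene's own strand with every match in capitals (AACGTG and TTACATAA are CACGTT and TTATGTAA on the opposite strand). CRY2 and NR1D2 each have another window, not printed here, that held no match of a marked motif. A match is only a stretch of letters and says nothing of binding in these cells. Positions are chr17:8152355-8152654 (minus strand) for PER1, chr2:238288561-238288860 (minus) for PER2, chr12:107093500-107093799 (minus) for CRY1 and chr11:45847225-45847524 (plus) for CRY2. They are chr17:40100540-40100839 (minus) for NR1D1, chr3:23945871-23946170 (plus) for NR1D2 and chr3:4979187-4979486 (plus) for BHLHE40.
PER1: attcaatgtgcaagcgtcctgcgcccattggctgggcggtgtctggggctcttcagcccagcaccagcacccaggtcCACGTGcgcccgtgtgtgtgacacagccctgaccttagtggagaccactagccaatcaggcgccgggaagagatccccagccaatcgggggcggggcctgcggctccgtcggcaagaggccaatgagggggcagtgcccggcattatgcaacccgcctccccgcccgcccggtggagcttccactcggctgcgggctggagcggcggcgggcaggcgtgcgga
PER2: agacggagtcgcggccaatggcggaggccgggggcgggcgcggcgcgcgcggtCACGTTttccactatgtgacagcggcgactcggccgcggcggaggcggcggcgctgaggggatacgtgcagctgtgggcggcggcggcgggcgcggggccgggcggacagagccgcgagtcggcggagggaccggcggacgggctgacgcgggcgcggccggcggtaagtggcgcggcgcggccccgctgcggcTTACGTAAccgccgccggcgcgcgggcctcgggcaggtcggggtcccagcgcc
CRY1: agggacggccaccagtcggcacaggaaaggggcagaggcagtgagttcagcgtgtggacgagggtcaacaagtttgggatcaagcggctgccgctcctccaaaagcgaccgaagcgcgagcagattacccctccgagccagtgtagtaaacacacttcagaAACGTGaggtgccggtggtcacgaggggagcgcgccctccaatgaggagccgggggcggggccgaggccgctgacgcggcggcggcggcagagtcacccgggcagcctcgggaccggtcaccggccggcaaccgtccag
CRY2: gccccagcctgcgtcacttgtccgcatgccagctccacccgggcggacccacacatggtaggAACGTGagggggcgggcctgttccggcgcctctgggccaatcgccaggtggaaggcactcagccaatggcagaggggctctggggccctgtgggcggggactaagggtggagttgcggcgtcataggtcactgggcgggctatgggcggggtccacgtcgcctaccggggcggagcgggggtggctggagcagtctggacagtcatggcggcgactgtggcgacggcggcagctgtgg
NR1D1: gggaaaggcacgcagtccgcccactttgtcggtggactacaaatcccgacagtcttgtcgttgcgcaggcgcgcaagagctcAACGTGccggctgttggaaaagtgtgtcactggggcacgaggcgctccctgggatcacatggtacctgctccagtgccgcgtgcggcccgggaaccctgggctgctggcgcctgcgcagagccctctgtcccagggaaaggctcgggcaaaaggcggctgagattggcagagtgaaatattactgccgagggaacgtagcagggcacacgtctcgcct
NR1D2: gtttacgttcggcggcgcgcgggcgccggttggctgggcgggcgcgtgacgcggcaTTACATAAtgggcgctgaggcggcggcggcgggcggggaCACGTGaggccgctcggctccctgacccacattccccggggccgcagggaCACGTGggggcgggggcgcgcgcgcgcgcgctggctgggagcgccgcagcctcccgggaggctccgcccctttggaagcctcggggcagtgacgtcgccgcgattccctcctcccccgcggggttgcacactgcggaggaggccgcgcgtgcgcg
BHLHE40: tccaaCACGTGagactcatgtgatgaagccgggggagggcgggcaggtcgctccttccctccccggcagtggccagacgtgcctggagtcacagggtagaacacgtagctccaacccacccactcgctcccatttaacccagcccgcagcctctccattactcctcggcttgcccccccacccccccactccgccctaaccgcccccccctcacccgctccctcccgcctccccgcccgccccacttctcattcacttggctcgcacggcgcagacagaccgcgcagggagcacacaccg
The E-box of PER1 began at -173 from the transcript start, the 2 E-boxes of NR1D2 at -155 and -105, and the single E-box of BHLHE40 at -245. The E′-box began at -197 in PER2, -89 in CRY1, -188 in CRY2 and -168 in NR1D1. The 6 rising genes all carried an E-box or E′-box, and so did BHLHE40 and CLOCK, which were lower at 12 h. PER3 (lower at 12 h) and DBP (lower at 4 h) held neither, and no link between motif and change was tested.

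Total counts per library ran from 9004529 to 17425584, and a gene with 0 counts could hold up to 0.172 to 0.333 CPM (counts scaled to a library of 1e6) by a floor of 3 counts. All 12 K562 markers (globins, GATA1, KLF1 and others) averaged at least 1 CPM, with a summed level of 10334 to 14181 CPM in the chase libraries and 4632 CPM without 4sU. Of the markers of other cells, 1 of 6 for monocytes and granulocytes (ELANE; summed 1.09 to 7.41 CPM in the chase and 0.689 CPM without 4sU) and 2 of 6 for fibroblasts and epithelia (EPCAM and KRT8; 218 to 338 and 382 CPM) averaged 1 CPM or more. The defining markers CD3E, MS4A1, MPO, CSF1R and COL1A1 averaged under 1 CPM; the part of any of these in the results was not tested. The composition of the spike-in RNA split the libraries: replicate 1 of 4 h lay with the earlier libraries on one side of its first component, and replicate 2 of 4 h lay with the later ones and with the library lacking 4sU on the other. That split nearly coincides with chase time, so calls that ended once the side entered the fit are named. Reads at the 3′ ends of PER2, PER3, NR1D1, CLOCK and DBP fall where a gene on the opposite strand also lies (AC012485.1, UTS2, THRA, TMEM165 and SPHK2 in GENCODE 29). Whether counting used strand is not given in the sources used here, so reads of these partners cannot be told apart from reads of the clock genes.

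Total RNA was compared with 0 h to see how the clock genes stood through the chase. The fold changes come from edgeR's quasi-likelihood test with Benjamini-Hochberg adjustment over 16255 genes (threshold 0.05), on counts scaled so that most genes are level, and all comparisons share the 2 libraries of 0 h. PER1, PER2 and CRY1 were higher at 2, 4, 8 and 12 h, and CRY2 at 4, 8 and 12 h. NR1D1 was higher at 2 and 8 h, and NR1D2 at 2 and 4 h. BHLHE40 was lower at 4, 8 and 12 h, PER3 and CLOCK were lower at 12 h, and DBP was lower at 4 h. In bulk RNA, fewer cells of a kind and less RNA in each cell cannot be told apart.

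At 1 h none of the 10 genes passed by edgeR (0.32% of all genes were higher and 0.0369% lower); PER1 and NR1D2 had an unadjusted p under 0.05, and DESeq2 also called 0. At 2 h, 5 of 10 were higher (5.25% of all genes tested) and 0 were lower (1.73%). CRY2, with a higher value, and BHLHE40, with a lower value, were the only others with an unadjusted p under 0.05 at 2 h by edgeR, and DESeq2 also called 5 higher and 0 lower. At 4 h, 5 were higher (16.7% of all genes) and 2 lower (15.5%). At 8 h, 5 were higher (23.7%) and 1 lower (25.4%), and at 12 h, 4 were higher (27.0%) and 3 lower (29.1%). By a joint test of the 5 later times, 9 of 10 changed over the chase, all but DBP (62.3% of all genes). From the earliest contrast to the latest, the median log2 fold change of the 10 genes was 0.20, 0.47, 0.38, 0.40 and 0.22, where the median of all genes tested was 0.01, -0.01, -0.03, -0.05 and -0.06. Scaling to the spike-in totals raised the median of all genes by 0.13 at 4 h, 0.29 at 8 h and 0.41 at 12 h, so the changes here are relative to the other genes; under it the falls of PER3 and CLOCK at 12 h and of DBP at 4 h were not called, and NR1D1 (12 h) and NR1D2 (8 and 12 h) were called higher.

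**Figure D1:**
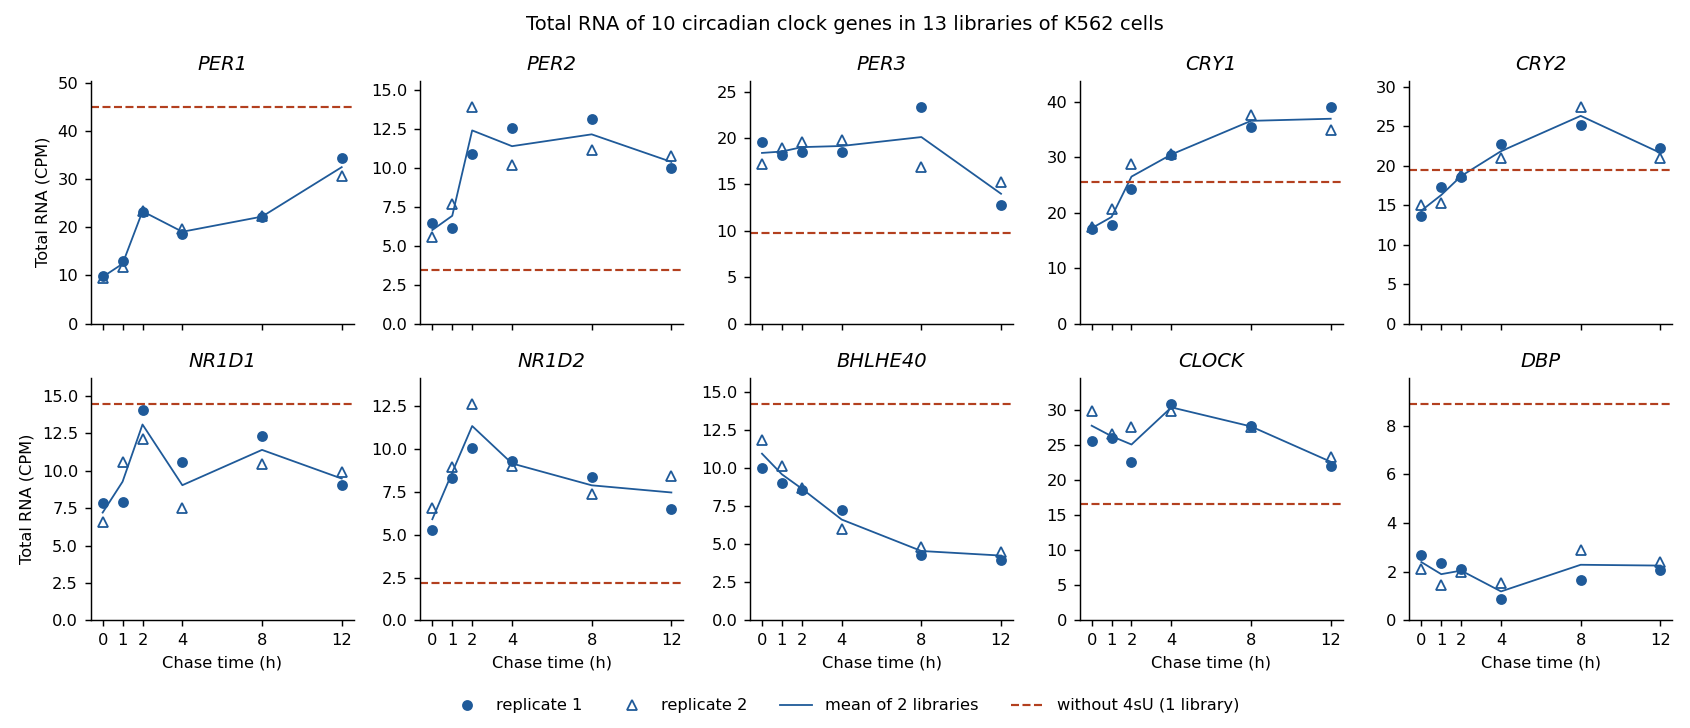
Total RNA in CPM (vertical axes, each with its own scale from 0) against chase time in h for the 10 clock genes. Filled circles are replicate 1, open triangles replicate 2, lines the mean of 2 libraries, and the dashed line the single library without 4sU; PER1 climbs from 9.84 and 9.55 CPM at 0 h to 34.4 and 30.7 CPM at 12 h, and BHLHE40 descends from 10.0 and 11.9 to 4.00 and 4.52 CPM.

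CLOCK, the activating partner, lies on chr4:55427903-55547138, minus strand (GENCODE 29). Total CLOCK gave 25.6 and 29.9 CPM (0 h), 25.9 and 26.6 (1 h) and 22.6 and 27.5 (2 h). CLOCK then stood at 30.9 and 29.9 (4 h), 27.8 and 27.5 (8 h) and 22.0 and 23.2 (12 h), with 16.5 in the library without 4sU. From 0 to 8 h the libraries ran from 22.6 to 30.9 CPM. Those of 1, 2 and 8 h overlapped those of 0 h. Replicate 1 of 4 h was the highest, and replicate 2 of 4 h was level with replicate 2 of 0 h (29.9 CPM each). Both libraries of 12 h were below both of 0 h, and the library without 4sU was the lowest of all 13. The fall at 12 h was -0.44 ± 0.12 (log2 fold change ± SE; adjusted p = 0.00202), while the 4 earlier contrasts lay between -0.18 and 0.04 and did not pass. The fall was not called without replicate 2 of 0 h (-0.31) or with the side in the fit (-0.43). BMAL1, the other member of the activating pair, had at most 4 counts in a library and 0 in 9 of 13, with 10 counts in all, and NPAS2, which can stand in for CLOCK, had 1 count in all.

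PER1 (chr17:8140472-8156506, minus strand) had the largest rise among the 10 genes. Total PER1 gave 9.84 and 9.55 CPM (0 h), 13.1 and 11.8 (1 h) and 23.2 and 23.5 (2 h). PER1 then stood at 18.6 and 19.6 (4 h), 22.1 and 22.4 (8 h) and 34.4 and 30.7 (12 h), with 45.0 in the library without 4sU. The replicates lay close together, every library from 1 h onwards was above both of 0 h, and the library without 4sU was above all 12 chase libraries. The log2 fold change against 0 h was 1.23 ± 0.13 at 2 h (2.35-fold; adjusted p = 4.17e-07) and 1.59 ± 0.13 at 12 h (3.02-fold; adjusted p = 5.43e-11), with 0.89 at 4 h and 1.06 at 8 h. Most of the gain was in unlabelled reads: mean unlabelled PER1 went from 3.31 CPM ± 0.186 (SD, n = 2) at 0 h to 15.0 ± 0.31 at 2 h and 32.4 ± 2.53 at 12 h. The level was steepest between 1 and 2 h, with 18.6 to 22.4 CPM in the 4 libraries of 4 and 8 h.

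PER2 (chr2:238244038-238290102, minus strand), a second PER repressor, also rose. Total PER2 gave 6.46 and 5.55 CPM (0 h), 6.14 and 7.70 (1 h) and 10.9 and 13.9 (2 h). PER2 then stood at 12.6 and 10.2 (4 h), 13.1 and 11.2 (8 h) and 9.99 and 10.8 (12 h), with 3.44 in the library without 4sU. All 8 libraries from 2 to 12 h were above all 4 of 0 and 1 h. The library without 4sU was the lowest of the 13, the opposite of its place for PER1. The log2 fold change was 1.00 ± 0.19 at 2 h (adjusted p = 0.00122) and 0.63 ± 0.20 at 12 h (adjusted p = 0.00801). The rise at 12 h was not called without replicate 2 of 0 h (0.55) or without replicate 2 of 12 h (0.58).

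PER3 (chr1:7784320-7845177, plus strand), the third PER gene, passed in 1 of the 5 contrasts, and downwards. Total PER3 gave 19.6 and 17.2 CPM (0 h), 18.1 and 19.0 (1 h) and 18.4 and 19.6 (2 h). PER3 then stood at 18.5 and 19.8 (4 h), 23.3 and 16.9 (8 h) and 12.8 and 15.2 (12 h), with 9.76 in the library without 4sU. The libraries of 0 to 4 h overlapped throughout, those of 8 h were the farthest apart, and both of 12 h were below both of 0 h. The 12 h value was -0.54 ± 0.15 (adjusted p = 0.00291), and the 4 earlier contrasts lay between -0.04 and 0.03. The fall was not called without replicate 1 of 0 h (-0.39) or without replicate 1 of 12 h (-0.43).

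CRY1 (chr12:106991364-107093829, minus strand), the cryptochrome that represses the activating pair most strongly, was higher at 4 of the 5 later times. Total CRY1 gave 17.0 and 17.4 CPM (0 h), 17.8 and 20.7 (1 h) and 24.2 and 28.8 (2 h). CRY1 then stood at 30.5 and 30.6 (4 h), 35.6 and 37.7 (8 h) and 39.1 and 34.9 (12 h), with 25.5 in the library without 4sU. From 2 h on every library was above all of 0 and 1 h, and the level went up to 8 h and then held. The log2 fold change was 0.59 ± 0.12 at 2 h (adjusted p = 0.00278) and 0.95 ± 0.12 at 8 h (adjusted p = 2.05e-07). The call at 2 h was lost without replicate 2 of 2 h (0.49).

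CRY2 (chr11:45847118-45883248, plus strand), the second cryptochrome, passed at 4, 8 and 12 h. Total CRY2 gave 13.6 and 15.0 CPM (0 h), 17.2 and 15.3 (1 h) and 18.5 and 18.9 (2 h). CRY2 then stood at 22.7 and 20.9 (4 h), 25.2 and 27.4 (8 h) and 22.2 and 21.0 (12 h), with 19.5 in the library without 4sU. The 4 libraries of 4 and 8 h were above all of 0, 1 and 2 h, and those of 12 h were at the level of 4 h. The largest value was 0.75 ± 0.13 at 8 h (adjusted p = 2.05e-05), after 0.35 ± 0.13 at 2 h, which did not pass (adjusted p = 0.108). Across the 13 libraries CRY1 and CRY2 had a Pearson's r of 0.913 in log2(CPM + 1), the highest among the 9 members that average at least 5 CPM, and BHLHE40 with CRY1 had the lowest (-0.818); all pairs share libraries and their chase times.

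NR1D1 (chr17:40092787-40100725, minus strand) had its highest chase level at 2 h. Total NR1D1 gave 7.85 and 6.55 CPM (0 h), 7.93 and 10.6 (1 h) and 14.0 and 12.1 (2 h). NR1D1 then stood at 10.5 and 7.51 (4 h), 12.3 and 10.5 (8 h) and 9.04 and 9.91 (12 h), with 14.5 in the library without 4sU. Both libraries of 2 h were above both of 0 h, those of 4 h were far apart, and the library without 4sU was above every chase library. The log2 fold change was 0.82 ± 0.19 at 2 h (adjusted p = 0.00743), 0.24 ± 0.20 at 4 h (adjusted p = 0.413) and 0.52 ± 0.20 at 8 h (adjusted p = 0.0326). The call at 2 h was lost without replicate 2 of 0 h (0.69) or replicate 1 of 2 h (0.70), and that at 8 h without replicate 2 of 0 h (0.40), without replicate 1 of 8 h (0.43) or by DESeq2 (0.53).

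NR1D2 (chr3:23945260-23980618, plus strand), the second REV-ERB, was likewise highest at 2 h but stood the other way round to the library without 4sU. Total NR1D2 gave 5.27 and 6.55 CPM (0 h), 8.34 and 8.93 (1 h) and 10.1 and 12.6 (2 h). NR1D2 then stood at 9.30 and 9.03 (4 h), 8.37 and 7.41 (8 h) and 6.52 and 8.42 (12 h), with 2.18 in the library without 4sU. All 12 chase libraries were above the library without 4sU, and all from 1 to 4 h were above both of 0 h. The log2 fold change was 0.91 ± 0.20 at 2 h (adjusted p = 0.00386) and 0.55 ± 0.20 at 4 h (adjusted p = 0.0392). The call at 2 h was lost without replicate 1 of 0 h (0.78) or replicate 2 of 2 h (0.76), and that at 4 h without replicate 1 of 0 h (0.44), without either replicate of 4 h (0.54 and 0.55), with no filter (0.59), by DESeq2 (0.55) or with the side in the fit (0.55).

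BHLHE40 (chr3:4979116-4985323, plus strand) was the member that fell furthest. Total BHLHE40 gave 10.0 and 11.9 CPM (0 h), 9.03 and 10.2 (1 h) and 8.59 and 8.73 (2 h). BHLHE40 then stood at 7.27 and 5.99 (4 h), 4.27 and 4.86 (8 h) and 4.00 and 4.52 (12 h), with 14.2 in the library without 4sU. The chase libraries stepped down from 0 h to 8 h with no overlap between 0, 4 and 8 h, and the library without 4sU was above all of them. The log2 fold change was -0.81 ± 0.19 at 4 h (adjusted p = 0.00146), -1.39 ± 0.20 at 8 h (adjusted p = 1.23e-06) and -1.50 ± 0.20 at 12 h (adjusted p = 2.95e-07), when 0 h was 2.84-fold above 12 h. The fall at these 3 times was called in every alternative run, the spike-in totals among them.

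DBP (chr19:48630030-48637438, minus strand) was near the limit of the counts, with 11 to 34 reads in a chase library and 155 without 4sU. Total DBP gave 2.68 and 2.11 CPM (0 h), 2.34 and 1.45 (1 h) and 2.10 and 2.00 (2 h). DBP then stood at 0.859 and 1.52 (4 h), 1.67 and 2.90 (8 h) and 2.09 and 2.42 (12 h), with 8.89 in the library without 4sU. The 12 chase libraries ran from 0.859 to 2.90 CPM, and the library without 4sU stood far above them. The value at 4 h was -1.12 ± 0.41 (adjusted p = 0.0378), and the other contrasts with 0 h lay between -0.31 and -0.21. That call was lost by DESeq2 (-1.11), in the 12 chase libraries alone (-1.10) and without replicate 1 of 0 h (-0.89), replicate 2 of 0 h (-1.28), replicate 1 of 2 h (-1.10) or replicate 1 of 4 h (-0.74).

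**Figure D2:**
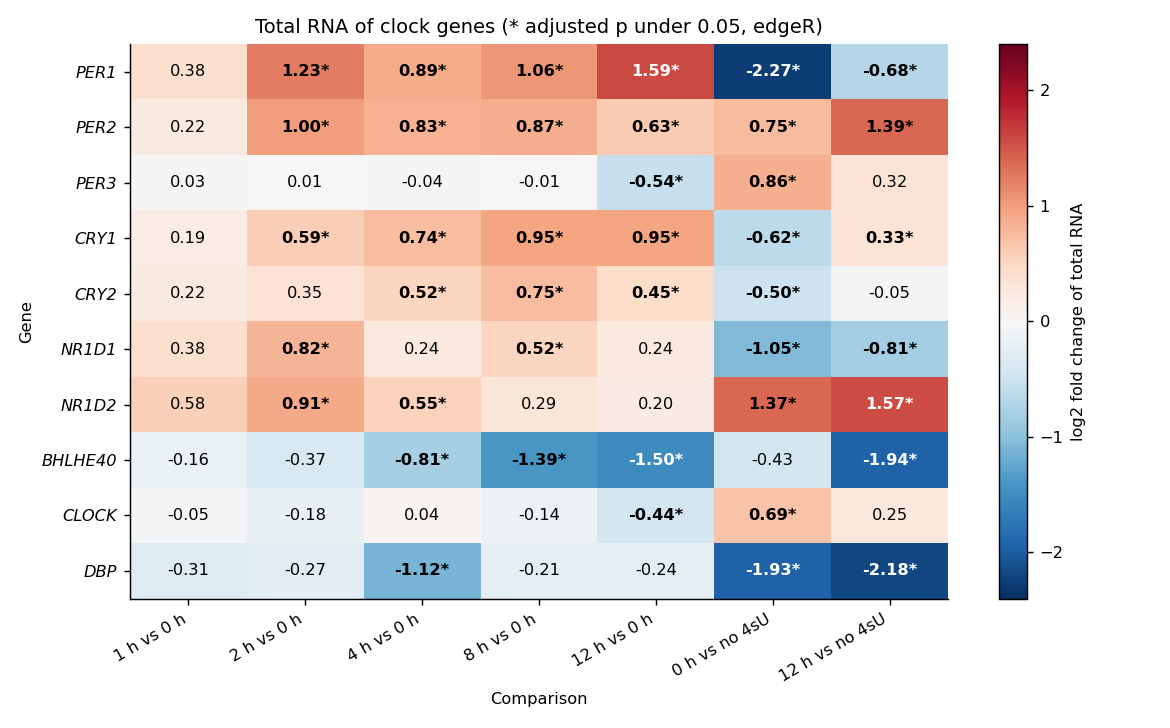
Log2 fold changes of total RNA for the 10 clock genes (rows) in 7 comparisons (columns), red for higher and blue for lower in the first-named group, with an asterisk where the adjusted p of edgeR was under 0.05. PER1 reads 1.59 at 12 h against 0 h and -2.27 at 0 h against the library without 4sU, and BHLHE40 reads -1.50 at 12 h against 0 h.

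The library without 4sU showed how the same genes stood in cells that had not been labelled. It has no replicate, so it was assumed to vary like the other groups, and it lies on the other spike-in side from 0 h. At 0 h, 4 of 10 genes were higher than without 4sU (33.5% of all genes) and 5 were lower (31.8%), with a median of -0.47 against 0.06 over all genes. PER1, at -2.27 ± 0.14, was 4.82-fold lower at 0 h (adjusted p = 1.23e-13), and DBP (-1.93 ± 0.36), NR1D1 (-1.05 ± 0.22), CRY1 (-0.62 ± 0.14) and CRY2 (-0.50 ± 0.15) were lower too. NR1D2 (1.37 ± 0.29; 2.59-fold; adjusted p = 1.78e-04), PER3 (0.86 ± 0.18), PER2 (0.75 ± 0.27) and CLOCK (0.69 ± 0.14) were higher. BHLHE40 had a value of -0.43 ± 0.20 and did not pass (adjusted p = 0.0577). Close relatives stood on opposite sides: PER1 against PER2 and PER3, and NR1D1 against NR1D2. Spike-in totals, which raised the median of all genes by 0.48, left CRY1 (-0.14) and CRY2 (-0.02) uncalled, and the side in the fit left PER2 (0.48) and DBP (-1.09) uncalled; PER2 was also not called without replicate 1 of 0 h (0.61), and BHLHE40 was called lower without replicate 2 of 4 h (-0.43) and with DESeq2's size factors (-0.45).

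After 12 h of chase, 3 of 10 genes were higher than without 4sU (26.2% of all genes) and 4 were lower (24.9%), with a median of 0.10 against 0.05. NR1D2 (1.57 ± 0.28; adjusted p = 2.95e-05), PER2 (1.39 ± 0.25; adjusted p = 3.31e-05) and CRY1 (0.33 ± 0.13) were higher. DBP (-2.18 ± 0.35; adjusted p = 6.81e-06), BHLHE40 (-1.94 ± 0.21; adjusted p = 1.64e-08), NR1D1 (-0.81 ± 0.21) and PER1 (-0.68 ± 0.12) were lower. PER3 (0.32), CRY2 (-0.05) and CLOCK (0.25) did not pass. Spike-in totals raised the median of all genes by 0.89 here and turned PER1 (0.22), NR1D1 (0.09) and CRY2 (0.84) upwards, with 6 members higher and 2 lower. The call for CRY1 was lost without replicate 1 of 12 h (0.25) and by DESeq2 (0.33).

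Loss of labelled RNA was read from the change of labelled counts per hour of chase, scaled to the whole library, and set against the median slope of 9674 genes (-0.24 log2 units per h) with edgeR's quasi-likelihood test. Of the 10 clock genes, 9 had enough labelled counts to be tested (at least 100 in all, and a mean of 5 CPM in total); DBP, with 57 labelled counts and 2.54 CPM, did not. Labelled RNA of 6 fell faster than the median gene (35.6% of all genes tested did): NR1D1, CRY2, CLOCK, BHLHE40, PER2 and PER1. CRY1 fell slower (36.5% of genes), and PER3 and NR1D2 did not pass (adjusted p = 0.608 and 0.722). The apparent half-life, read along a single exponential, had a median of 2.78 h over these 9 genes and of 4.29 h over all genes tested. A filter that asks for counts was passed by these 9 and failed by DBP, so the median is not one over all 10.

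**Figure D3:**
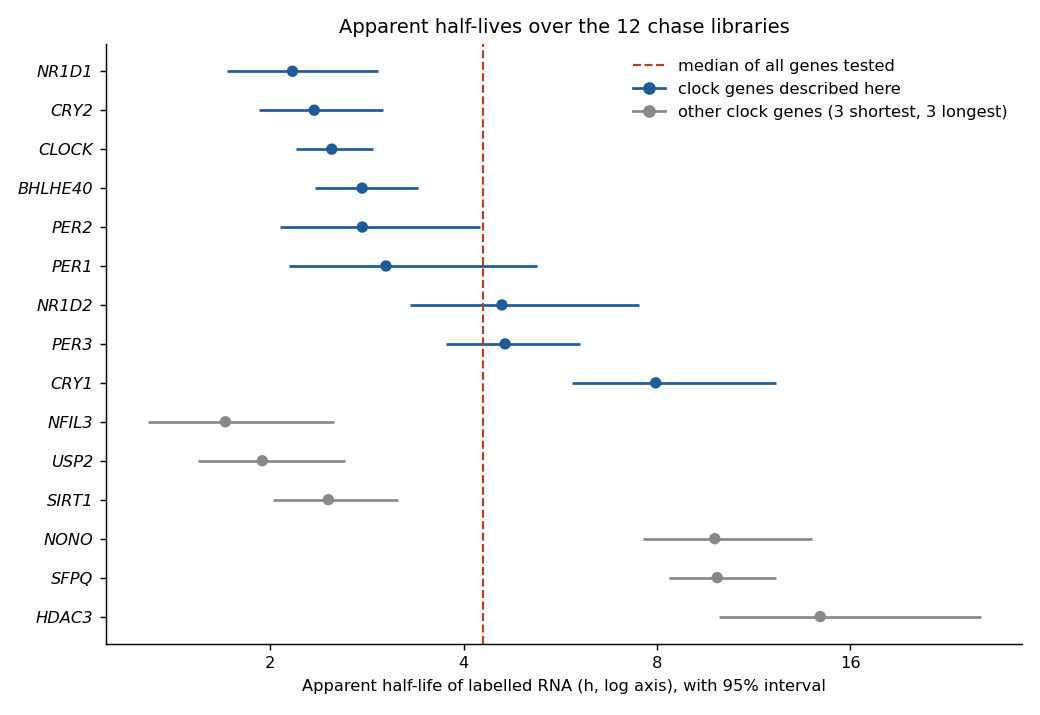
Apparent half-lives in h (horizontal, log axis) with 95% intervals for the 9 clock genes tested (blue) and for the other genes of the clock with the 3 shortest and 3 longest (grey); the dashed line is the median of all genes tested, 4.29 h. CRY1 at 7.97 h stands to the right of the other 8 blue points, which lie between 2.17 and 4.64 h.

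The 2 cryptochromes lay on opposite sides of the median gene. Labelled CRY1 gave 13.4 and 15.9 CPM (0 h), 14.3 and 16.2 (1 h) and 16.3 and 19.2 (2 h). CRY1 then stood at 14.5 and 15.8 (4 h), 8.62 and 10.6 (8 h) and 6.08 and 5.38 (12 h). Labelled CRY2 gave 9.94 and 11.2 CPM (0 h), 10.9 and 9.30 (1 h) and 8.87 and 8.36 (2 h). CRY2 then stood at 4.22 and 4.29 (4 h), 0.669 and 1.70 (8 h) and 0.0869 and 0.156 (12 h). At 12 h CRY1 still held 70 and 69 labelled reads, while CRY2 held 1 and 2. CRY1 fell slower than the median gene by 0.11 ± 0.02 log2 units per h (difference of slopes ± SE; adjusted p = 2.91e-06) and CRY2 faster, at -0.22 ± 0.03 (adjusted p = 1.84e-06). The half-lives were 7.97 h (95% interval 5.89 to 12.3 h) for CRY1 and 2.34 h (95% interval 1.92 to 3.00 h) for CRY2, and the intervals did not overlap. The labelled share of reads went from 85.0% ± 8.58 (SD, n = 2) at 0 h to 15.5% ± 0.0844 at 12 h for CRY1, and from 73.9% ± 1.29 to 0.567% ± 0.250 for CRY2.

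PER1 and PER2 lost label faster than the median gene, and PER3 did not. Labelled PER1 gave 6.66 and 6.11 CPM (0 h), 6.69 and 5.74 (1 h) and 7.96 and 8.73 (2 h). PER1 then stood at 5.16 and 4.92 (4 h), 1.09 and 0.937 (8 h) and 0.261 and 0.0780 (12 h). It was highest in both libraries of 2 h and dropped only after that. The difference from the median slope was -0.14 ± 0.04 (adjusted p = 0.00436) with a half-life of 3.03 h (95% interval 2.14 to 5.21 h). Labelled PER2 gave 4.47 and 3.89 CPM (0 h), 4.07 and 4.94 (1 h) and 3.00 and 5.10 (2 h). PER2 then stood at 2.89 and 2.50 (4 h), 0.251 and 0.937 (8 h) and 0.261 and 0 (12 h). The difference was -0.15 ± 0.05 (adjusted p = 0.00572), with a half-life of 2.78 h (95% interval 2.07 to 4.25 h). PER3 kept 13.4 to 15.5 CPM of labelled RNA in all 6 libraries up to 2 h, then fell to 2.35 and 1.79 CPM at 12 h, for a half-life of 4.64 h (95% interval 3.76 to 6.07 h). Of PER3 reads 76.1% ± 2.80 were labelled at 0 h, 77.9% ± 1.40 at 2 h and 15.1% ± 4.65 at 12 h. For PER1 the same shares were 65.8% ± 2.63, 35.7% ± 1.96 and 0.506% ± 0.356.

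Decay did not follow a straight line on the log scale for 5 of the 9 genes: PER1, PER2, PER3, CRY1 and CRY2 bent downwards (33.2% of all genes tested did, and 0.527% bent upwards), so their half-life depends on the window. Over 2 to 12 h the half-life of PER1 was 1.92 h and that of CRY1 5.84 h, against 3.03 and 7.97 h over 0 to 12 h. Over 0 to 4 h PER1 had a half-life of 12.5 h and a slope above the median (0.079), and PER2 (-0.02) and NR1D1 (-0.18) were not called. CRY2, CLOCK and BHLHE40 were the 3 that still fell faster in that window.

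**Figure D4:**
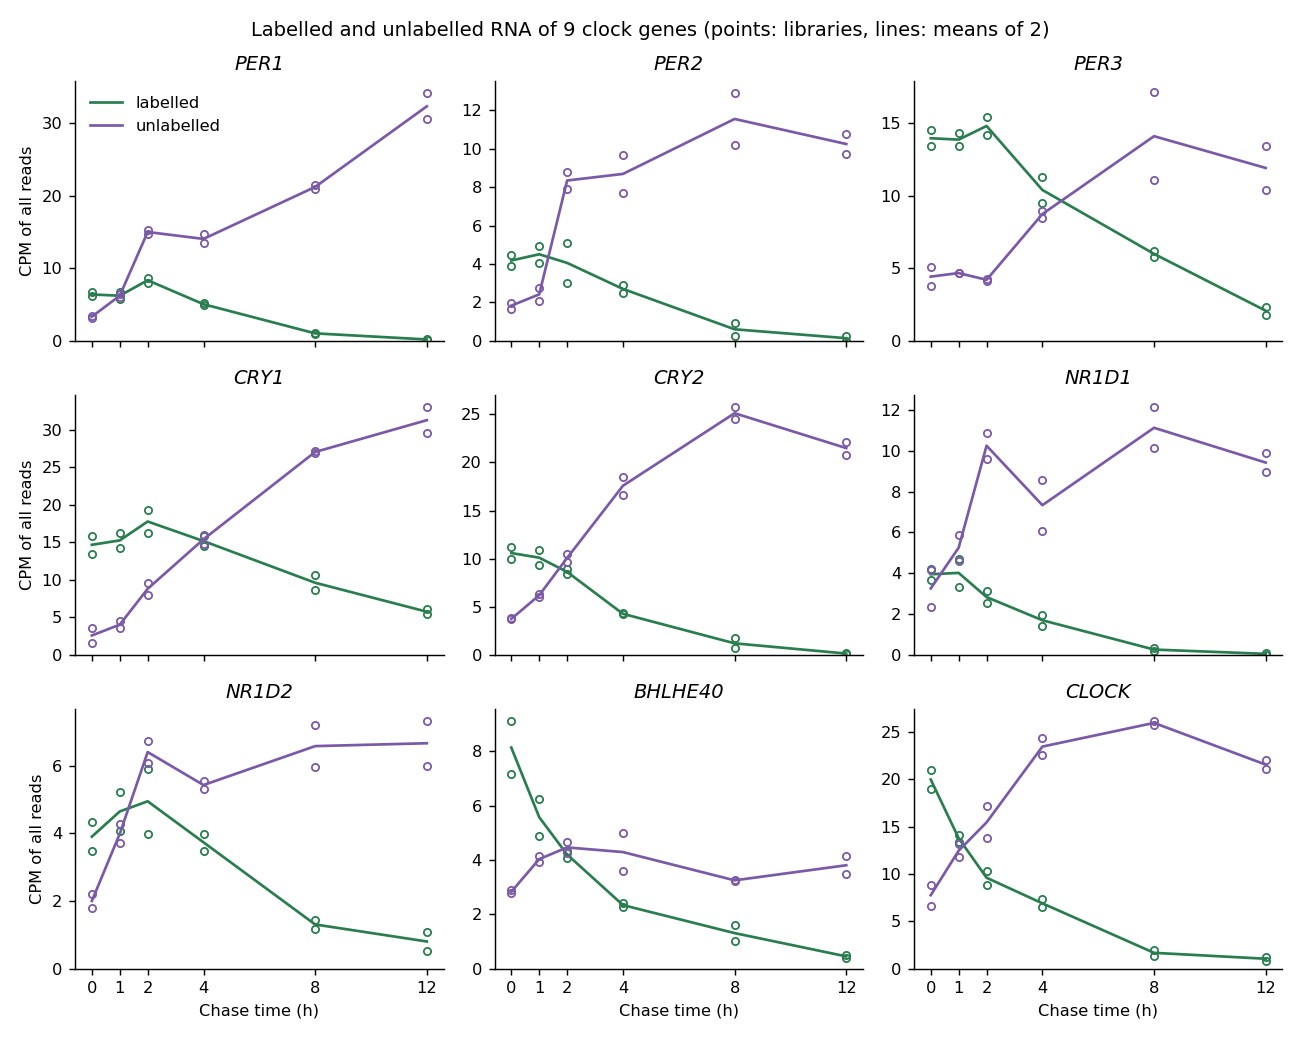
Labelled (green) and unlabelled (purple) RNA in CPM of all reads (vertical axes, each with its own scale from 0) against chase time in h for the 9 genes tested; circles are libraries and lines means of 2. Labelled PER1 and CRY1 peak at 2 h, labelled CRY2, BHLHE40 and CLOCK are highest at 0 h, and unlabelled BHLHE40 stays low while mean unlabelled PER1 climbs to 32.4 CPM.

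The 2 nuclear receptors differed as well. Labelled NR1D1 gave 3.68 and 4.22 CPM (0 h), 3.31 and 4.72 (1 h) and 3.14 and 2.51 (2 h). NR1D1 then stood at 1.95 and 1.43 (4 h), 0.167 and 0.341 (8 h) and 0.0869 and 0 (12 h). NR1D1 had the shortest half-life of the 9, 2.17 h (95% interval 1.71 to 2.95 h), and a difference from the median slope of -0.25 ± 0.05 (adjusted p = 4.60e-05). At the end of the pulse 46.8 and 64.4% of its reads were labelled in the 2 libraries, the widest gap between replicates of any of the 9 genes at 0 h. Labelled NR1D2 gave 3.48 and 4.33 CPM (0 h), 4.07 and 5.23 (1 h) and 3.98 and 5.92 (2 h). NR1D2 then stood at 3.98 and 3.49 (4 h), 1.17 and 1.45 (8 h) and 0.521 and 1.09 (12 h). Its half-life was 4.59 h (95% interval 3.30 to 7.52 h), an interval that did not overlap that of NR1D1.

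CLOCK and BHLHE40 had less labelled RNA in both libraries of 1 h than in either of 0 h. Labelled CLOCK gave 19.0 and 21.0 CPM (0 h), 14.1 and 13.4 (1 h) and 8.87 and 10.4 (2 h). CLOCK then stood at 6.49 and 7.33 (4 h), 2.01 and 1.36 (8 h) and 0.869 and 1.25 (12 h). Libraries of 0, 1, 2, 4 and 8 h did not overlap, and the difference from the median slope was -0.14 ± 0.02 (adjusted p = 3.79e-06), with a half-life of 2.49 h (95% interval 2.19 to 2.89 h). Labelled BHLHE40 gave 7.15 and 9.11 CPM (0 h), 4.90 and 6.25 (1 h) and 4.33 and 4.07 (2 h). BHLHE40 then stood at 2.27 and 2.42 (4 h), 1.00 and 1.62 (8 h) and 0.521 and 0.390 (12 h). Its difference from the median slope was -0.10 ± 0.03 (adjusted p = 0.00206), with a half-life of 2.78 h (95% interval 2.35 to 3.40 h). For CLOCK the loss of label went with a gain of unlabelled RNA, from 7.77 CPM ± 1.57 at 0 h to 23.5 ± 1.3 at 4 h, and the total level at 4 h did not pass against 0 h. For BHLHE40 unlabelled RNA was 2.83 CPM ± 0.0743 at 0 h and 3.81 ± 0.465 at 12 h.

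**Figure D5:**
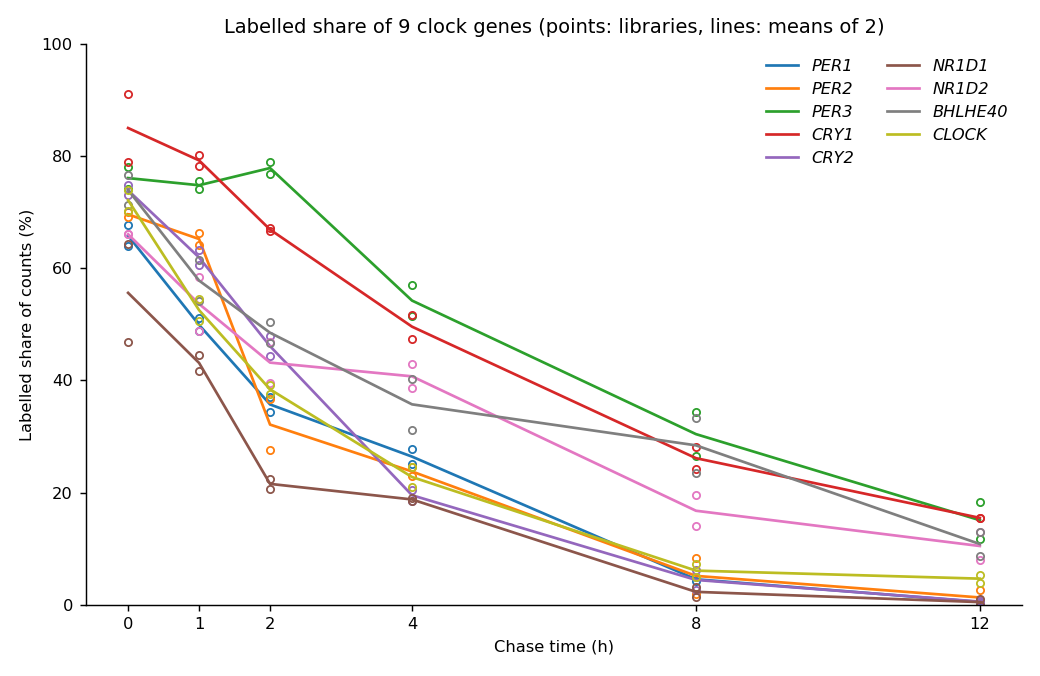
Labelled share of reads in percent (vertical, 0 to 100) against chase time in h for the 9 genes tested, with circles for libraries and lines for means of 2. PER3 and CRY1 stay highest until 4 h, NR1D1 is lowest at every time up to 8 h, and at 12 h the means lie between 0.481% (NR1D1) and 15.5% (CRY1).

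Scaled to each gene's own total in place of the library, the same counts give the turnover of the label within that gene's RNA. By that measure the half-lives were 2.12 h for PER1, 2.08 h for PER2, 4.68 h for CRY1, 1.93 h for CRY2 and 1.89 h for NR1D1, all shorter than with the library as the scale. They were 5.19 h for PER3, 4.65 h for NR1D2, 2.56 h for CLOCK and 4.80 h for BHLHE40. BHLHE40 thereby passed on the slow side (0.066, against -0.10 with the library as the scale), and PER3, NR1D2 and CRY1 were slower as well, 4 members in all against 1. With the spike-in side in the fit, only CRY2 (-0.21) and CLOCK (-0.15) of the 6 were still called faster, and CRY1 (0.10) was still called slower. The 4 not called had differences from the median slope of -0.12 ± 0.07 for PER1, -0.12 ± 0.08 for PER2, -0.19 ± 0.08 for NR1D1 and -0.12 ± 0.05 for BHLHE40, with larger SEs than without the side. BHLHE40 was also not called over 2 to 12 h (-0.04) or with no filter (-0.06). Without 4sU all 10 genes had 0 labelled reads, which allows a share of up to 0.382% for PER1 and up to 7.89% for NR1D2, the gene with the fewest reads there. DBP, outside the test, was 35.1% ± 2.48 labelled at 0 h and had 0 labelled reads in both libraries of 8 h.

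A list of 30 other genes of the clock and its regulators, of which 18 could be tested in total RNA and 17 for decay, gives the surroundings of the 10. Genes that averaged under 1 CPM included BMAL1, BMAL2, NPAS2, RORA, RORB, HLF, BHLHE41, CIART, FBXL21P, PRKAA2 and PPARGC1A, with FBXL21P at 0 in all 13 libraries. Of the 17, labelled RNA of 10 fell faster (35.6% of all genes tested) and of 6 slower (36.5%) than the median gene, with a median half-life of 3.42 h. The shortest belonged to NFIL3, a repressor at D-boxes, at 1.70 h (95% interval 1.29 to 2.51 h), USP2, a deubiquitinase, at 1.94 h and SIRT1, a deacetylase, at 2.46 h. With the spike-in side in the fit, NFIL3 (-0.22 ± 0.10) and USP2 (-0.16 ± 0.08) were no longer called faster, and SIRT1 (-0.16 ± 0.05) still was. Further genes of this list, not named here, also lost their call in that fit. The longest belonged to HDAC3, the deacetylase that REV-ERBs recruit, at 14.4 h (95% interval 9.99 to 25.5 h), SFPQ at 9.93 h and NONO at 9.85 h, both RNA-binding proteins known to join PER complexes.

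In total RNA 16 of the 18 changed over the chase (62.3% of all genes), and at 12 h 11 were higher (27.0%) and 3 lower (29.1%) than at 0 h, with a median log2 fold change of 0.46 (all genes -0.06). BTRC, an F-box protein that marks PER proteins for destruction, had the largest rise, 1.64 ± 0.19 at 8 h (adjusted p = 3.04e-08; mean 7.33 CPM at 0 h and 25.03 CPM at 8 h). SFPQ (1.23 ± 0.06) and NAMPT (0.89 ± 0.09), an enzyme of NAD salvage, followed at 12 h. Genes that fell at 12 h included PRKAA1 (-1.04 ± 0.14), a catalytic subunit of AMPK, and FBXW11 (-0.69 ± 0.15). FBXW11 was not called with spike-in totals (-0.27) or with the side in the fit (-0.51), under which 7 rather than 11 of the list were higher at 12 h.

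The genes whose total RNA ran most like that of each member were found by Pearson's r of log2(CPM + 1) over the 13 libraries, among 8094 genes with a mean of at least 10 CPM; r is given as a description, since all genes share the libraries and their chase times. PER1 was closest to ANKRD28 (0.975) and ZC3H12A (0.963), PER2 to MED9 (0.970) and USP36 (0.952), and PER3 to SEC24A (0.951) and ZNF621 (0.940). CRY1 was closest to UXS1 (0.985) and PSMD5 (0.982), and CRY2 to TFG (0.958) and FOXK2 (0.956). NR1D1 had the loosest match, NSFL1C (0.807) and LMNA (0.804), while NR1D2 was closest to CNOT2 (0.937) and APOOL (0.935). BHLHE40 was closest to RPL7A (0.980) and NME4 (0.979), and CLOCK to DEPDC1 (0.940) and C9orf85 (0.936). Between members, PER3 and CLOCK had an r of 0.818 and PER2 and NR1D2 of 0.810, while PER1 was at 0.146 with PER2 and -0.627 with PER3.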

How the data were processed

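Counts per gene of all reads and of labelled reads, and spike-in counts, were deposited by the authors as raw counts, per the file headers and values; per the submitters' processing notes, the builds were dm6 and hg38, and the tools included Trim Galore 0.6.5 and bedtools. No aligner, strand setting or rule for a labelled read is given in the sources used here. Libraries were matched by column name. Counts were tested with edgeR 4.0.16 (R 4.3.3; TMM, filterByExpr by group for total counts) and, as an alternative, DESeq2 1.42.0, two-sided, with SEs derived from the F statistic and p-values adjusted over all genes. CPM values are counts scaled to a library total of 1e6. Half-lives came from a quasi-Poisson exponential fit to 12 libraries (Python 3.11.15, scipy 1.17.1) with the labelled share without 4sU as background. Promoters came from a RefSeq table (GRCh38.p14). All 10 members were named; other clock genes by the 3 shortest and longest half-lives and the 3 largest rises and falls; similar genes by the 2 highest correlations. Some results of these lists are not reported here. Members and lists were chosen with earlier results of these data known. The fits were tested on simulated data.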

Additional observations from a re-analysis of the deposited data

How the results depend on the processing

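The alternatives were DESeq2's size factors and test, spike-in totals, each gene's own total as the scale, other filters and windows, the spike-in side as a factor, the chase libraries alone, a replicate block, and leaving out single libraries. For the 10 clock genes, 6 fell faster than the median gene, against 3 over 0 to 4 h and 2 with the side as a factor; 1 fell slower, against 4 with the own total and 2 with no filter. The 2 lower at 4 h became 1 by DESeq2's test, with spike-in totals and in the chase libraries alone. With spike-in totals 1 was lower at 12 h, 3 were lower at 0 h than without 4sU, and 6 were higher and 2 lower at 12 h than without 4sU. Leaving out each library in turn gave 3 to 5 higher at 2 h and 1 to 2 lower at 4 h, and 7 to 9 changed over the chase.

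For the other clock genes, 5 fell faster and 3 slower over 0 to 4 h, and 3 fell faster with the side as a factor. At 2 h, 5 were higher with spike-in totals, with no filter and with the side, and 1 was lower with DESeq2's size factors and with the side. At 4 h, 2 were lower by DESeq2's test and with no filter, and 0 with spike-in totals. At 8 h, 1 was lower with spike-in totals and with the side, and at 12 h, 7 were higher with the side. Spike-in totals gave 7 higher and 3 lower at 0 h than without 4sU, and 17 higher and 0 lower at 12 h. Leaving out each library gave 1 to 5 higher and 0 to 1 lower at 2 h, 2 to 4 lower at 4 h and 2 to 4 lower at 8 h. The cause of these shifts was not tested.

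The slope against the median changed sign for PER1 over 0 to 4 h (0.079), for PER3 over 2 to 12 h (-0.0045) and with the side (-0.018), for NR1D2 over 2 to 12 h (-0.021) and for BHLHE40 with its own total (0.066). With spike-in totals the sign turned for PER3 at 4 h (0.10) and 8 h (0.28), CLOCK at 8 h (0.16) and DBP at 8 h (0.092) and 12 h (0.18), none of which had passed. With spike-in totals it also turned for BHLHE40 at 0 h against no 4sU (0.046), which had not passed. At 12 h against no 4sU it turned for PER1 (0.22) and NR1D1 (0.086), which had passed as lower. CRY2 (0.84) turned in that comparison too: it had not passed and was then called higher. PER3 at 8 h was at 0.024 with no filter and at 0.0096 in the chase libraries alone. Leaving out each library in turn, signs turned only where no call had been made. The NR1D2 slope ran from -0.011 to 0.028, and PER3 ran from -0.085 to 0.14 at 1 h, -0.090 to 0.14 at 2 h, -0.12 to 0.10 at 4 h and -0.24 to 0.18 at 8 h. NR1D1 ran from -0.020 to 0.44 at 4 h, NR1D2 from -0.0044 to 0.38 at 12 h, CLOCK from -0.15 to 0.027 at 1 h and -0.023 to 0.15 at 4 h, and DBP from -0.68 to 0.16 at 8 h and -0.38 to 0.0071 at 12 h.

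Deviations of same-numbered libraries had an r over 0.1 in 5 of 15 pairs of times (range -0.180 to 0.493, highest between 4 and 8 h), not in every pair, so the replicate block rests on a shared number only. With the block 6 clock genes fell faster and 1 slower, 1 rather than 2 was lower at 4 h (DBP, at -1.11, had an adjusted p of 0.0503 by edgeR), 9 changed over the chase, 1 other clock gene was lower at 2 h, and PER3 at 8 h was at 0.0090.

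Depth limits DBP most, with 57 labelled reads in all and 11 to 34 total reads in a chase library, then NR1D2 and PER2 without 4sU (38 and 60 reads). The upper limits on the labelled share without 4sU cover counting error only, and molecular identifiers are not mentioned in the labels. The half-life intervals were widened where the 12 libraries spread around the fit by more than counting error.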
